A study of Mus musculus with 11 samples.

Results

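The Bcl-2 family was followed in mouse lung mesenchyme after sham surgery or pneumonectomy (PNX), an operation that takes out part of the lung. It was taken as 10 gene symbols of 24411 in the table of read counts: Bcl2, Bcl2l1, Bcl2l2, Mcl1, Bax, Bak1, Bcl2l11, Bbc3, Pmaip1 and Bid. All 10 were among the 16011 genes that passed the filter on low counts. The members were chosen by values of these data: Bcl2l1 was picked for its lower level after PNX, and the other 9 were added to it by family. The PNX against sham values of Bcl2l1 are therefore a description. Where its standing at a threshold of adjusted p is given, it describes that choice and is no test. Only the other members and the comparisons between days are tested. For Bcl2l1 these comparisons and the interaction of surgery and day use the same libraries, so their p-values are not free of that choice. The mice were of the strain C57BL6, and no allele, transgene or drug is named. Cells lacking EpCAM, CD45 and CD31 at the surface were sorted from the lungs 7 or 14 days after surgery, a gate meant to leave out epithelial, blood-derived and endothelial cells. There were 3 libraries of sham at day 7, 3 of PNX at day 7, 2 of sham at day 14 and 3 of PNX at day 14, with total counts from 2539628 to 9008592. Whether replicates were separate animals is not stated in the labels, so p-values measure only how far these libraries scatter, and that scatter may be technical.

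Proteins of the Bcl-2 family decide at the outer mitochondrial membrane whether a cell under stress enters apoptosis. Pro-survival members (Bcl-2, Bcl-xL from Bcl2l1, Bcl-w from Bcl2l2, and Mcl-1) hold the pore-forming members Bax and Bak in check. BH3-only members (Bid, Bim from Bcl2l11, Puma from Bbc3, and Noxa from Pmaip1) carry the stress signal and neutralise the pro-survival proteins or activate Bax and Bak. In the lung, pro-survival members are known for keeping activated fibroblasts alive in fibrosis. Bcl2l1 also gives a shorter spliced form of opposite function, and counts per gene do not tell the forms apart.

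Bcl2l1 lies on the minus strand of chromosome 2, from 152780668 to 152831728 in mm10. RefSeq gives it 3 start sites, and the counts merge transcripts from all of them. The windows of 300 bases around 2 of the starts are shown because, of the 3, they hold the only matches to the motifs searched, most of them motifs of factors that act after stimulation. Both are of the minus strand, 5′ to 3′, in GRCm38.p6, the build also called mm10. The first, chr2:152831679-152831978, is the most upstream start and the second, chr2:152830668-152830967, the next one downstream; capitals mark the matches.
Bcl2l1 most upstream start: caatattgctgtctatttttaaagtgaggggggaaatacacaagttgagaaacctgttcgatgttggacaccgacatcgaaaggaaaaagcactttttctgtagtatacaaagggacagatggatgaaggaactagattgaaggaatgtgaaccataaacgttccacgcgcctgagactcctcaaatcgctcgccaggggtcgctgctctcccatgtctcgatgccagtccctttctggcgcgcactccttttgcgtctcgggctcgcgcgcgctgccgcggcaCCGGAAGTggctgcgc
Bcl2l1 next start: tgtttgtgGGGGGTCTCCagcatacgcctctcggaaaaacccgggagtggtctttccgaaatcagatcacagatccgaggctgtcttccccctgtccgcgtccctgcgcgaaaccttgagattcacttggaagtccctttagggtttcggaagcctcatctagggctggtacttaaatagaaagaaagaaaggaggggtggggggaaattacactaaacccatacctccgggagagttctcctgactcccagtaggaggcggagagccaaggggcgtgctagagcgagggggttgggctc
The motifs searched on both strands were AP-1 (TGANTCA), CRE (TGACGTCA), EGR1 (GCGTGGGCG), STAT (TTCNNNGAA), ETS (CCGGAAGT), the SRF site called the CArG box, and the kappa B site of NF-kB. The most upstream window held 1 ETS match, at 35 to 42 bases from the start site, and the next window 1 kappa B match, 242 to 233 bases before the start. Of 32851 promoter windows of this length in the mouse, 3.89% held an ETS match and 8.46% a kappa B match. AP-1 letters stood in 7.81% of all windows, CRE letters in 1.79%, the CArG box in 1.63%, EGR1 letters in 0.612% and STAT letters in 8.30%, and none of these stood in the windows of Bcl2l1. A match is a run of letters only; no binding was measured here.

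Levels are given as CPM, the counts of a gene relative to the total of its library, scaled by TMM factors. Day 7 sham libraries held 99.7, 184 and 281 CPM of Bcl2l1, and PNX libraries of that day 41.1, 44.0 and 34.3 CPM. Every PNX library of day 7 was lower than every sham library. At day 14 it stood at 35.9 and 101 CPM in sham and at 34.5, 14.4 and 11.9 CPM in PNX. Here too the groups did not overlap, but the sham library of replicate 1 and the PNX library of replicate 1 were within 2 CPM of each other. From its lowest to its highest library Bcl2l1 spanned 23.6-fold, and its standard deviation over the 11 libraries on the log2 scale, 1.41, was larger than that of 97.5% of all genes tested.

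**Figure D1:**
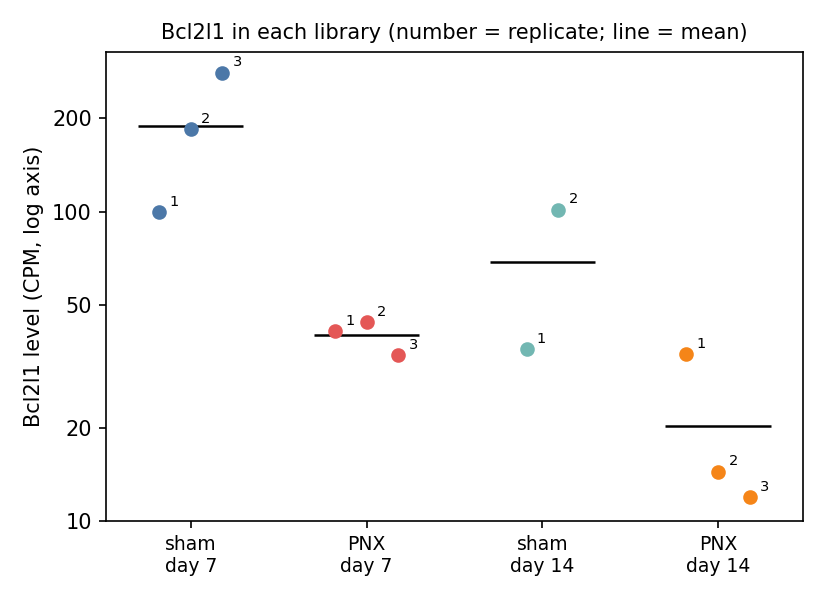
Bcl2l1 in CPM on a log axis, 1 point per library labelled with its replicate number, with the group mean as a line. The sham libraries of day 7 (99.7 to 281 CPM) stand above all PNX libraries, while the lower of the sham libraries of day 14 (35.9 CPM) lies among the PNX libraries.

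Ordered by group, Bcl2l1 was highest in sham at day 7 (188 ± 90.7 CPM, mean ± SD, n = 3), then sham at day 14 (68.7 ± 46.3, n = 2), PNX at day 7 (39.8 ± 4.99, n = 3) and PNX at day 14 (20.3 ± 12.4, n = 3). The neighbours sham day 7 and sham day 14 differed by less than their summed SD, and so did sham day 14 and PNX day 7; the 2 PNX groups stood apart by little more than theirs, with 1 library of day 14 inside the range of day 7. The log2 fold change of PNX over sham was -2.24 ± 0.48 (SE) on day 7 and -1.77 ± 0.51 on day 14. Averaged over both days it was -2.004 ± 0.347. In that average Bcl2l1 was 1 of the 31 genes past an adjusted p of 0.05 (0.194% of genes tested) and 1 of the 9 among them that were lower (0.0562%). This is assumed to be the value that singled it out, so here and below its standing at the threshold is no test. Over both days together its groups overlapped, as those of all 10 members did, while 1.08% of genes tested had groups that did not (0.443% lower and 0.637% higher after PNX). The difference at day 14 rested on few libraries: without sham replicate 2 of day 14 it was -0.69, without sham replicate 1 -2.33 and without PNX replicate 1 -2.38. The average of both days was -1.49 without sham replicate 2 of day 14, -1.94 without PNX replicate 2 and -1.87 without PNX replicate 3 of that day, and in each of these cases Bcl2l1 was not past the threshold. Nor was it with limma voom (-1.91), with the replicate number as a block (-1.96), with that block and an offset for GC content (-1.79), or with covariates for receptor-gene background (-1.86) or immediate early genes (-0.67).

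The 2 PNX effects on Bcl2l1 were compared by the interaction of surgery and day. This contrast and the comparisons between days draw on the same libraries as the PNX against sham values. Their p for Bcl2l1 are therefore not free of its choice. The log2 difference between them was 0.48 ± 0.69 (adjusted p = 0.826, edgeR's quasi-likelihood test with Benjamini-Hochberg adjustment over all genes), and its sign turned without sham replicate 1 of day 14 (-0.07) or without PNX replicate 1 of day 14 (-0.13). From day 7 to day 14 Bcl2l1 stood lower after sham (-1.45 ± 0.53, adjusted p = 0.198) and after PNX (-0.97 ± 0.47, adjusted p = 0.736), neither past the threshold. Without sham replicate 2 of day 14 the sham difference was -2.56 (adjusted p = 0.0342), the only left-out library at which Bcl2l1 passed. In that setting 5.41% of all genes tested passed, against 0.0187% with all libraries, and the 1 remaining sham library of day 14 is assumed to vary like the others.

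The genes most like Bcl2l1 were sought among 9713 genes with a mean log2 CPM of at least 3, by Pearson's r of log2 CPM over the 11 libraries. The 5 of highest r were Tmem109 (0.98), Mid1ip1 (0.97), Il11ra1 (0.97), Pdxk (0.96) and Junb (0.96). Il11ra1 encodes the receptor subunit of interleukin 11, and Junb a subunit of AP-1 that is induced quickly on stimulation. These r describe libraries that share their groups and their technical traits, and they carry no test. Junb levels were 1477, 7507 and 11387 CPM in sham and 473, 614 and 533 CPM in PNX on day 7. On day 14 it stood at 356 and 821 CPM in sham and 486, 85.7 and 133 CPM in PNX. Bcl2l1 and Junb were both highest in sham replicate 3 of day 7, and in sham at day 14 both were higher in replicate 2.

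Immediate early genes respond within minutes to stimulation, the handling of cells included. A list of 14 immediate early and handling stress genes, called immediate early genes here for short, was summed in each library. The sum ranged from 34812 to 61987 CPM in sham and from 13402 to 18648 CPM in PNX on day 7. The sum on day 14 was 10799 and 24633 CPM for sham, with 10129 to 17236 CPM for PNX. Of the 14 genes, 12 had a lower estimate after PNX at day 7, where 48.3% of all genes tested did, and 14 at day 14 (54.8% of all genes). At day 7 Ier3 (0.99) and Hspa1b (0.50) had a higher estimate, and the adjusted p of the 14 ranged from 0.0606 to 0.870. Their r with Bcl2l1 was over 0.8 for 8 of them, Jun (0.95), Nr4a1 (0.95) and Egr1 (0.94) among them, beside 6.28% of the 9713 genes compared. It was below 0.8 for the other 6, with 0.54 for Dusp1, 0.36 for Hspa1b and -0.20 for Ier3. With the log2 of this sum as a covariate, chosen after seeing the data, the log2 fold change of Bcl2l1 was -0.14 ± 0.56 on day 7 and -1.19 ± 0.36 on day 14. Averaged over both days the value was -0.67 ± 0.37, and no gene of the whole table passed the threshold there. The covariate is itself separated between sham and PNX at day 7, so that at that day its share and the share of surgery cannot be told apart.

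**Figure D2:**
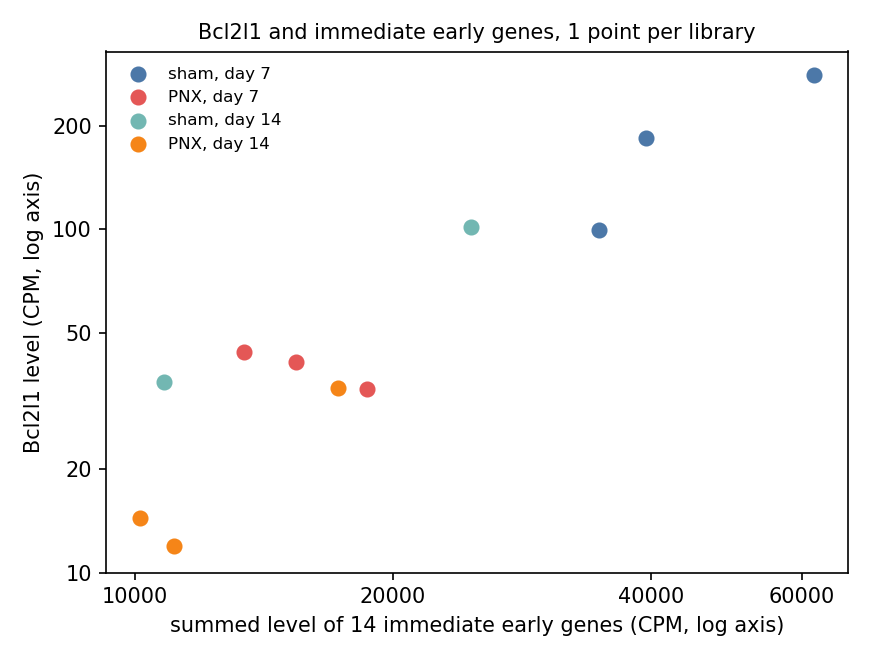
Bcl2l1 in CPM against the summed CPM of 14 immediate early and handling stress genes, both on log axes, 1 point per library coloured by group. The 3 sham libraries of day 7 and the sham library of day 14 at 101 CPM hold the 4 highest values on both axes.

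Other traits of the libraries were set beside Bcl2l1. Its transcript has a GC content of 55.9%, above that of 82.3% of genes tested, and the 100 genes most like it had a median of 55.8% against 49.6% for all genes tested. Over 9683 genes, Spearman's rho between GC content and the deviation of genes from their mean level was -0.12, 0.50 and 0.29 in the sham libraries of day 7. It was 0.14, 0.30 and -0.17 in PNX of day 7, 0.07 and -0.39 in sham of day 14, and -0.31, -0.35 and -0.37 in PNX of day 14. With an offset for this GC trend the log2 fold change of Bcl2l1 was -1.90 ± 0.40 on day 7 and -1.75 ± 0.44 on day 14, and -1.83 ± 0.30 averaged over both. Bcl2l1 is also abundant in maturing red cells. The sum of 4 haemoglobin genes and Alas2 was 5008, 17819 and 15427 CPM in sham and 24169, 17013 and 3742 CPM in PNX on day 7. On day 14 this sum was 23509 and 3033 CPM for sham, with 254, 79877 and 33457 CPM for PNX. Within sham of day 7 it was lowest in the library where Bcl2l1 was lowest, and within sham of day 14 it was lower in the library where Bcl2l1 was higher. Within PNX of day 7 both were lowest in replicate 3. Within PNX of day 14 replicate 1 had the lowest erythroid sum and the highest Bcl2l1 (34.5 CPM), and replicate 2 the highest sum and 14.4 CPM of Bcl2l1. Haematopoietic markers, 12 in number, summed to between 192 and 1545 CPM in sham and between 302 and 902 CPM in PNX on day 7. On day 14 their sum was 2055 and 2249 CPM in sham, and 1503, 1883 and 1999 CPM in PNX. Lyz2 and Cd74 made up most of these day 14 sums, with 683 and 779 CPM in PNX replicate 1. The other markers stood at 51.1 CPM or less in every library. All of them but Csf1r were higher in both sham libraries of day 14 than in every PNX library of that day. Fcer1g, for one, stood at 47.0 and 35.3 CPM in sham and at 5.04, 10.4 and 6.52 CPM in PNX. Of all genes tested 8.28% were lower after PNX without overlap at day 14. Epithelial markers ranged from 211 to 12226 CPM in sham and 916 to 2414 CPM in PNX of day 7. On day 14 they stood at 2796 and 12482 CPM in sham and 7335 to 16612 CPM in PNX. Endothelial markers ranged from 141 to 1049 CPM and mesothelial from 263 to 3063 CPM over all libraries, beside 9115 to 36018 CPM for 10 markers of lung mesenchyme. Sham replicate 1 of day 14, the lower in Bcl2l1 of its group, had the lowest mesothelial and mesenchyme sums and the lowest total counts. Its background of olfactory and vomeronasal receptor genes, 1635 CPM of total counts, was the highest. The part of these cell types and traits in the family's levels was not tested. Fewer cells of a type and less RNA per cell cannot be told apart in bulk samples.

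Among the other pro-survival members, Mcl1 was the most abundant of the family per kilobase of exon, the exons of all annotated transcripts of a gene joined. Its median was 85.9 CPM per kilobase over the 11 libraries. Bax followed at 49.8, Bcl2l1 at 8.97, Pmaip1 at 6.01, Bcl2 at 4.34 and Bcl2l2 at 3.61. Mcl1 encodes a short-lived protein that cells replace continuously. Its level was 192, 259 and 225 CPM in sham and 272, 294 and 236 CPM in PNX on day 7. On day 14 its level was 475 and 341 CPM in sham and 387, 350 and 307 CPM in PNX. Sham and PNX overlapped at both days, with log2 fold changes of 0.25 ± 0.31 (adjusted p = 0.798) and -0.23 ± 0.34 (adjusted p = 0.903). Mcl1 was higher at day 14 than at day 7 in every library of the same surgery: the log2 difference was 0.85 ± 0.34 after sham (adjusted p = 0.234) and 0.38 ± 0.31 after PNX (adjusted p = 0.774), neither past the threshold. Mcl1 (higher) and Bak1 (lower) were the 2 of 10 members without overlap between the days after PNX, where 18.1% of genes tested had none (9.08% lower, 9.02% higher at day 14). After sham Mcl1 and Bax were higher and Bak1 and Bcl2l11 lower without overlap, 4 of 10 members beside 24.3% of genes tested (11.8% lower, 12.5% higher).

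Bcl2, the founding member of the family, measured 39.8, 46.8 and 43.5 CPM in sham and 35.9, 41.8 and 32.8 CPM in PNX on day 7. On day 14 Bcl2 measured 31.9 and 43.1 CPM in sham and 59.3, 26.7 and 24.5 CPM in PNX. Sham and PNX overlapped at both days, and PNX replicate 1 of day 14 was the highest of all libraries. The difference at day 7 was -0.24 ± 0.34 and that at day 14 -0.03 ± 0.38 on the log2 scale (adjusted p = 0.826 and 0.991). Bcl2l2 stood between 11.5 and 19.1 CPM in all libraries but sham replicate 1 of day 14, at 27.2 CPM, and its log2 differences were 0.21 ± 0.35 and -0.49 ± 0.38 (adjusted p = 0.847 and 0.829).

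Within a library, shares of the pro-survival transcripts do not depend on how libraries are scaled. They can still follow a library's GC trend, as GC content is 55.9% for Bcl2l1 and 48.7% for Mcl1. That part was not tested. Per kilobase of exon, Bcl2l1 made up 25.7, 32.1 and 45.5% of the sum of the 4 pro-survival genes in sham at day 7. In the 3 PNX libraries of that day it made up 9.32, 9.21 and 8.98%. On day 14 its share was 5.01 and 17.0% for sham and 5.78, 2.81 and 2.63% for PNX, and the groups overlapped. The rest was mostly Mcl1, with 48.9 to 66.2% in sham of day 7, 82.4 to 82.9% in PNX of day 7 and 76.6 to 91.5% in the libraries of day 14. Bcl2 and Bcl2l2 each took 2.12 to 5.13% in all 11 libraries. Since Bcl2l1 is assumed to have led to the choice of the family, its share is a description as well.

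**Figure D3:**
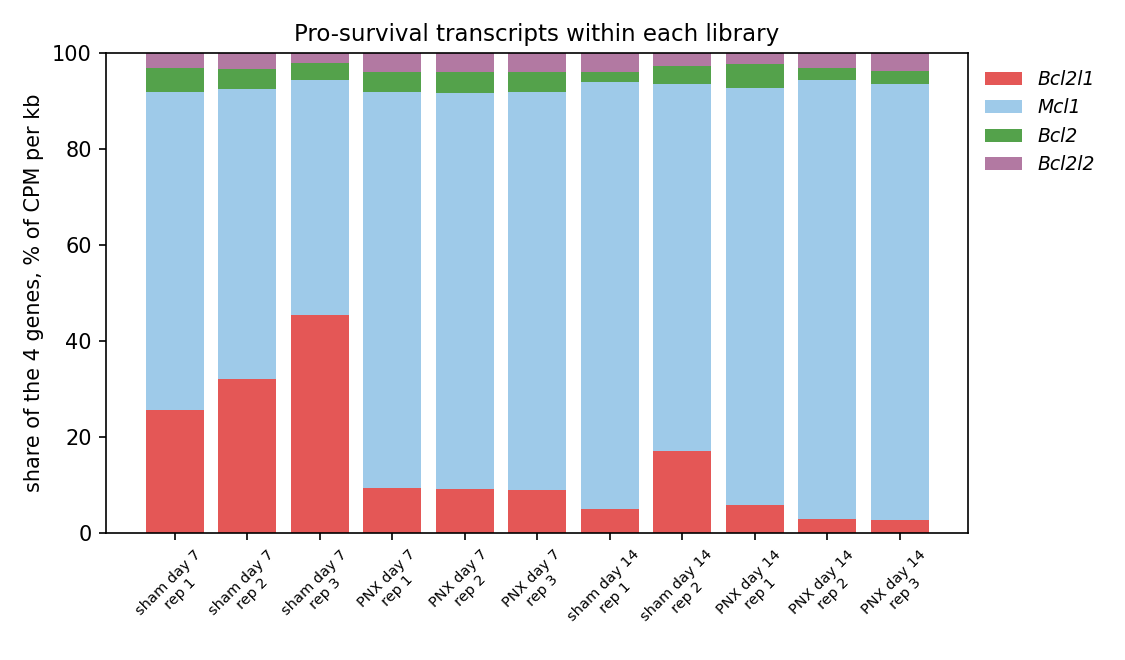
Share of Bcl2l1, Mcl1, Bcl2 and Bcl2l2 in their summed level per kilobase of exon, 1 bar per library from 0 to 100%. The Bcl2l1 segment is 25.7 to 45.5% in sham at day 7, 8.98 to 9.32% in PNX at day 7 and at most 17.0% at day 14.

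Of the pore-forming members, Bax was the steadiest of the family, with levels from 68.3 to 136 CPM, a 1.99-fold span. Day 7 levels were 68.3, 76.0 and 76.1 CPM in sham and 95.4, 92.5 and 78.5 CPM in PNX. All 3 PNX libraries were above all 3 sham libraries, by 0.27 ± 0.31 on the log2 scale (adjusted p = 0.780). Bax and Bcl2l1 were the 2 of 10 members whose groups did not overlap at day 7, where 19.5% of all genes tested did not (9.57% lower and 9.95% higher after PNX). Day 14 levels of Bax were 136 and 77.9 CPM in sham and 78.2, 118 and 81.8 CPM in PNX, overlapping (-0.20 ± 0.35, adjusted p = 0.916).

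Bak1, the other pore-forming member, measured 5.76, 21.3 and 24.1 CPM in sham and 6.46, 10.5 and 7.45 CPM in PNX on day 7. Sham replicate 1 was below all PNX libraries and the other 2 sham libraries above them. The log2 fold change was -1.07 ± 0.49 (adjusted p = 0.369). Day 14 levels were 5.04 and 5.61 CPM in sham and 4.48, 4.39 and 2.70 CPM in PNX (-0.46 ± 0.57, adjusted p = 0.882), lower in every PNX library. The log2 difference of day 14 from day 7 was -1.66 ± 0.58 after sham (adjusted p = 0.174) and -1.06 ± 0.51 after PNX (adjusted p = 0.734). Without sham replicate 1 of day 7 the adjusted p after sham was 0.0318, in a setting where 3.41% of all genes tested passed, against 0.0187% with all libraries. Among the 9 other members Bak1 was the most like Bcl2l1, with r = 0.83 over the 11 libraries, while Bax had r = -0.51 and Mcl1 r = -0.49. Exons of Bak1 overlap those of Ggnbp1 on the opposite strand, which stood at 0 to 4.08 CPM. The strand setting of the counts is not given in the sources used here. Exons of Bcl2l2 and Bax overlap those of genes on the same strand, by 594 and 192 bases. Those of Bcl2 overlap a gene on the opposite strand by 558 bases. The names of these overlapping genes are not among the counted symbols.

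**Figure D4:**
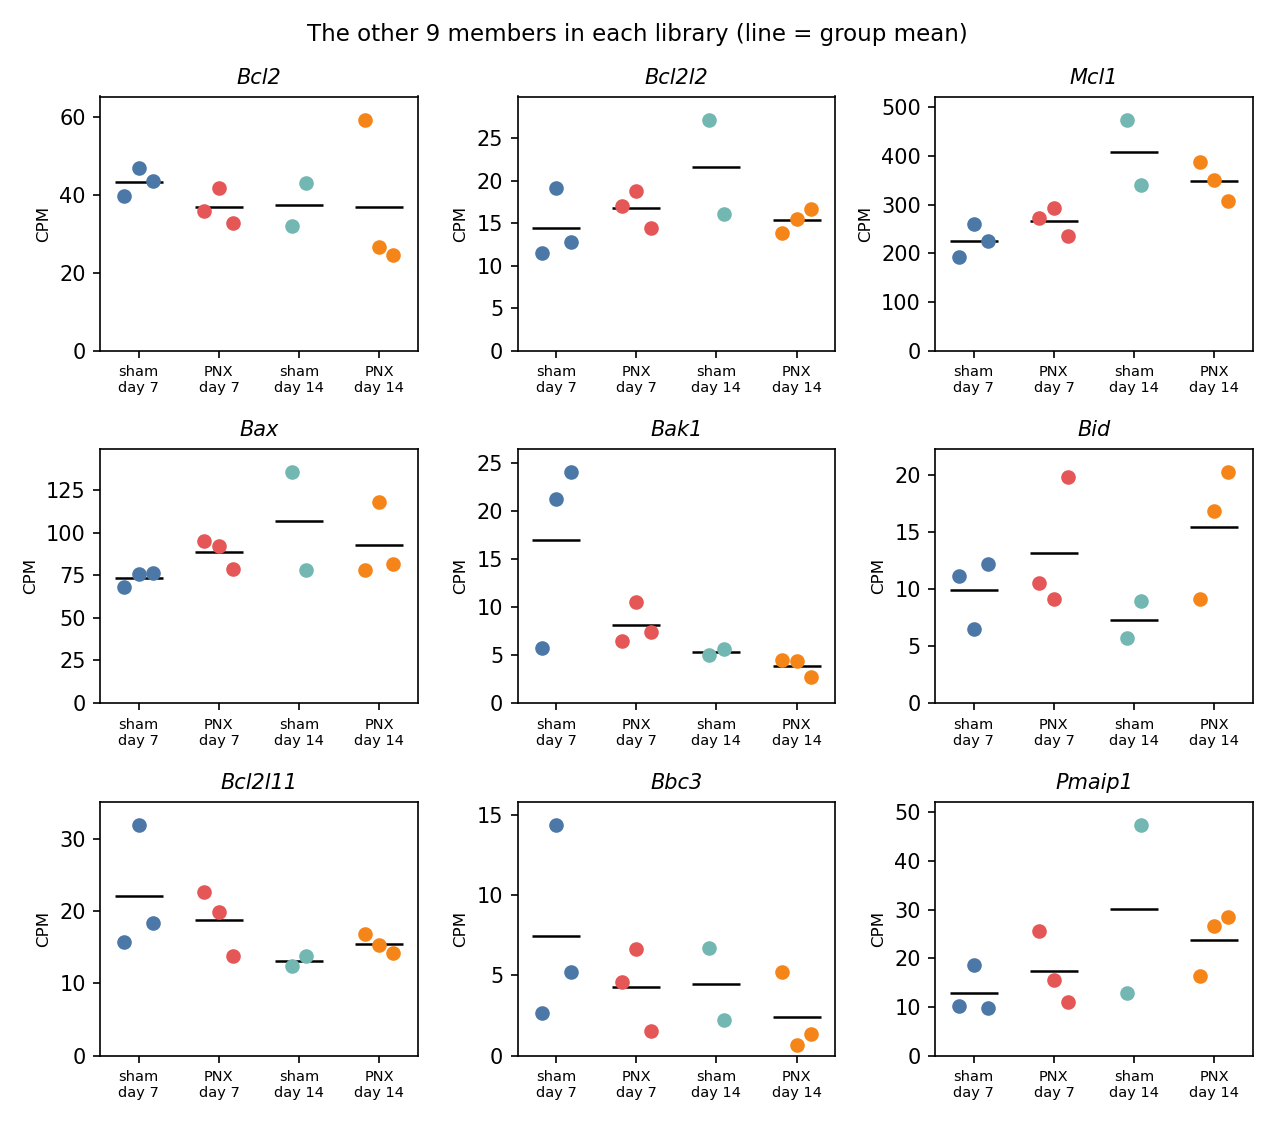
The 9 members other than Bcl2l1 in CPM, 1 panel per gene with an axis from 0, 1 point per library and the group mean as a line. Sham and PNX overlap at day 7 in every panel except that of Bax, and Bak1 is highest in 2 of the 3 sham libraries of day 7.

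Among the BH3-only members, Bid, whose protein links death receptors to mitochondria after cleavage by a caspase, measured 11.1, 6.44 and 12.2 CPM in sham and 10.5, 9.14 and 19.8 CPM in PNX on day 7. On day 14 Bid measured 5.71 and 8.90 CPM in sham and 9.14, 16.8 and 20.2 CPM in PNX. The groups overlapped at day 7 and not at day 14, where the log2 fold change was 1.05 ± 0.50 (adjusted p = 0.729). Averaged over both days it was 0.73 ± 0.33 (adjusted p = 0.455). Its exons overlap those of Bcl2l13, which runs on the opposite strand and stood at 11.1 to 33.9 CPM.

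Bcl2l11 encodes Bim, an activator of Bax and Bak, and measured 15.7, 32.0 and 18.4 CPM in sham and 22.6, 19.9 and 13.7 CPM in PNX on day 7. On day 14 Bcl2l11 measured 12.4 and 13.8 CPM in sham and 16.8, 15.4 and 14.2 CPM in PNX. Every PNX library of day 14 was above both sham libraries, by 0.23 ± 0.40 on the log2 scale (adjusted p = 0.917). Per kilobase of exon Bcl2l11 was the lowest of the 10, with a median of 1.96 CPM, close to Bbc3 at 2.16. The rank depends on this joined exon length, which can exceed that of the transcripts present.

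Bbc3 and Pmaip1, like Bax, are textbook targets of p53, the transcription factor of the DNA damage response. Bbc3 was counted least, with 4 to 67 reads a library: it measured 2.67, 14.4 and 5.22 CPM in sham and 4.59, 6.65 and 1.54 CPM in PNX on day 7. On day 14 Bbc3 measured 6.72 and 2.196 CPM in sham and 5.22, 0.628 and 1.35 CPM in PNX. The groups overlapped at both days, with log2 fold changes of -0.81 ± 0.79 and -0.84 ± 0.91 (adjusted p = 0.743 and 0.869). Pmaip1 measured 10.3, 18.7 and 9.86 CPM in sham and 25.7, 15.5 and 11.05 CPM in PNX on day 7. On day 14 Pmaip1 measured 12.8 and 47.5 CPM in sham and 16.4, 26.5 and 28.5 CPM in PNX. Sham and PNX overlapped at both days (0.44 ± 0.46 and -0.36 ± 0.50, adjusted p = 0.764 and 0.895). The higher Pmaip1 in sham at day 14 than at day 7 (1.25 ± 0.50, adjusted p = 0.245) turned to -0.18 without sham replicate 2 of day 14.

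Counted over the family, none of the 9 members other than Bcl2l1 was past an adjusted p of 0.05 in any of the 6 comparisons with edgeR, DESeq2 or limma voom. In PNX against sham, 6 of 16011 genes passed at day 7 (0.0375%) and 1 at day 14 (0.00625%). The interaction had 0 genes (0%), day 14 against day 7 after PNX 0 (0%) and the same comparison after sham 3 (0.0187%). At an unadjusted p under 0.05 Bak1 passed at day 7, where 12.7% of all genes did, none of the 9 at day 14 (6.81% of all genes) and Bid in the average of both days (10.3%). Between days after sham 3 of the 9 did, Bak1, Mcl1 and Pmaip1 (14.3%); between days after PNX (6.85%) and in the interaction (8.76%) none did. Their median log2 fold change was 0.21 at day 7 and -0.23 at day 14, beside 0.03 and -0.07 over all genes tested. Groups did not overlap at day 14 for 4 of the 10 members (Bcl2l1 and Bak1 lower, Bcl2l11 and Bid higher), beside 17.9% of all genes (8.28% lower, 9.57% higher). With total counts as the scale, the TMM factors left out, the median of all genes was 0.21 at day 7 and -0.26 at day 14. Under that scaling Bcl2l1 was at -2.01 and -1.84.

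**Figure D5:**
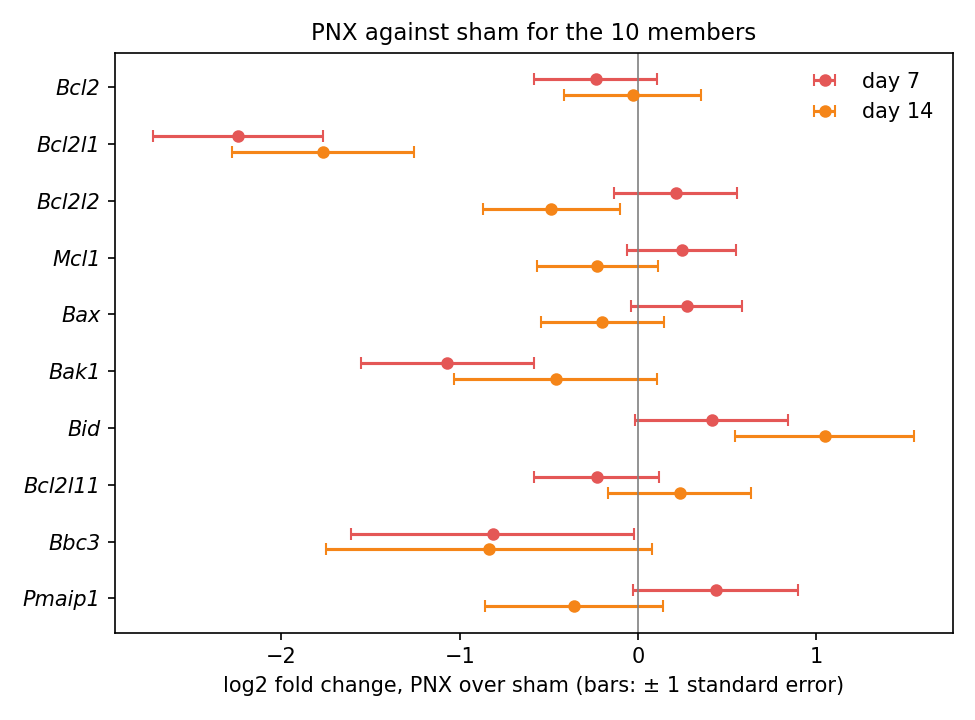
Log2 fold change of PNX over sham for each member at day 7 and at day 14; points are edgeR estimates and bars 1 standard error to each side. Bcl2l1 lies at -2.24 and -1.77, and the other 9 lie between -1.07 and 1.05.

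Around the family, 5 lists of the apoptosis pathway were counted, with adjusted p from edgeR throughout. In the 2 comparisons of PNX with sham no member of any list passed, beside 0.0375% of all genes tested at day 7 and 0.00625% at day 14. For the counts of every list, 48.3% of all genes tested were lower at day 7 and 54.8% at day 14. An unadjusted p under 0.05 was reached by 12.7% of them at day 7 and 6.81% at day 14. Of 15 other Bcl-2 family members 13 were tested, Bcl2l14 and Bcl2l15 having at most 8 and 5 counts in a library. At day 7, 9 were higher and 4 lower (median log2 fold change 0.09, 0 at an unadjusted p under 0.05), led by Bmf, a BH3-only gene (-0.68 ± 0.47, adjusted p = 0.625), and Bnip3, a mitophagy receptor (-0.48 ± 0.40, adjusted p = 0.705). At day 14, 3 were higher and 10 lower (median -0.45, 3 at an unadjusted p under 0.05). The 3 were Bcl2a1b (-3.34 ± 1.05, adjusted p = 0.449), Bcl2a1a (-4.31 ± 1.43, adjusted p = 0.501) and Bcl2a1d (-2.90 ± 1.05, adjusted p = 0.585), pro-survival genes of leukocytes. Bcl2a1b stood at 13.4 CPM in sham at day 14 and at 1.15 to 1.44 CPM in the other group means. These near-identical copies can share reads. The sum of the 12 haematopoietic markers was highest in the same 2 sham libraries (2055 and 2249 CPM, next 1999 CPM in PNX replicate 3 of day 14). Taken singly, Lyz2, Cd74, Coro1a, Cd3e and Csf1r were highest in other libraries. The part of leukocytes was not tested.

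The apoptosome, caspases and their inhibitors numbered 16, all tested. At day 7, 11 were higher and 5 lower (median 0.18, 3 at an unadjusted p under 0.05), and at day 14, 10 and 6 (median 0.17, 3). Of all genes tested 12.7% and 6.81% had such a p at day 7 and day 14. Birc5, which encodes survivin, an inhibitor of apoptosis made by dividing cells, averaged 7.14 CPM after sham and 33.8 CPM after PNX on day 7 (2.23 ± 0.75, adjusted p = 0.224). DESeq2 and limma voom called it there, as they did 3.4% and 5.16% of all genes. Htra2, a mitochondrial protease released in apoptosis, was at 64.5 and 35.7 CPM (-0.85 ± 0.31, adjusted p = 0.239). On day 14 Birc6, an inhibitor of apoptosis, and Apaf1, the core of the apoptosome, had the smallest p (0.98 ± 0.36, adjusted p = 0.594, and 0.86 ± 0.38, adjusted p = 0.701). Of 10 genes of the death receptor pathway 6 were higher at day 7 and 5 at day 14, with 0 at an unadjusted p under 0.05 at either day; Casp8, the initiator caspase, stood at 26.5 and 39.9 CPM at day 7 (0.59 ± 0.39, adjusted p = 0.606) and Fas, the receptor, at 89.5 and 108 CPM (0.27 ± 0.30, adjusted p = 0.768). At day 14 the smallest p of that list belonged to Tnfrsf1a (-0.41 ± 0.34) and Cflar (-0.38 ± 0.32), each at adjusted p = 0.831.

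Of 8 mitochondrial partners of the family 6 were higher at day 7 and 5 at day 14, again with 0 at an unadjusted p under 0.05. Tmbim6, a membrane protein that counters cell death induced by Bax, stood at 1553 and 968 CPM at day 7 (-0.68 ± 0.41, adjusted p = 0.545). Fis1, a factor of mitochondrial fission, had a log2 fold change of 0.52 ± 0.33 (adjusted p = 0.587). At day 14 the leading genes of that list were Bcap31 (0.34 ± 0.39, adjusted p = 0.874) and Dnm1l (0.35 ± 0.49, adjusted p = 0.895). Of 21 genes of the p53 list, which includes Bax, Bbc3 and Pmaip1, 8 were higher at day 7 and 12 at day 14 (medians -0.26 and 0.14, 2 at an unadjusted p under 0.05 at each day). The share of all genes tested at such a p was 12.7% at day 7 and 6.81% at day 14. The smallest p at day 7 belonged to Sesn2, a stress-induced gene, at 12.4 and 2.94 CPM (-2.08 ± 0.77, adjusted p = 0.243), and Btg2 (-1.05 ± 0.47, adjusted p = 0.367). Sesn2 overlapped between the groups, with 2.25, 17.2 and 17.8 CPM in sham and 3.57, 3.32 and 1.93 CPM in PNX. At day 14 the smallest p belonged again to Apaf1, which both lists hold, and to Perp (0.93 ± 0.44, adjusted p = 0.723). Cdkn1a, the best-known p53 target, chosen after its values were seen, stood at 252 and 189 CPM at day 7 and 225 and 252 CPM at day 14 in sham and PNX.

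Between days after sham, DESeq2 called Bcl2a1b, Bcl2a1d and Cycs higher and Htra2 lower at day 14, in a comparison where it called 5.02% of all genes. After PNX, DESeq2 and limma voom called Birc5 lower at day 14, where they called 0.447% and 0.693% of all genes. With edgeR none of the 5 lists had a call in these comparisons. Cycs, which encodes the cytochrome c released through the Bax and Bak pore, stood at 158 CPM in sham at day 7 and 385 CPM in sham at day 14 (1.29 ± 0.35, adjusted p = 0.117). Birc5 stood at 33.8 CPM in PNX at day 7 and 5.49 CPM in PNX at day 14 (-2.58 ± 0.77, adjusted p = 0.567).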

How the data were processed

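RNA of sorted lung mesenchymal cells was sequenced in 11 libraries prepared with kits for low input, per the labels' protocols. The deposited values are whole read counts per gene symbol, made by the authors; the submitters' processing notes name mm10 and bcl2fastq 2.20.0.422. Aligner, counting tool, annotation and strand setting are not given in the sources used here. The columns were checked to be unscaled whole numbers, and all were used.

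The main test was the quasi-likelihood F test of edgeR 4.0.16 (R 4.3.3) on 4 group means, with robust dispersions, TMM factors and the default filter on low counts by group (8400 genes removed, 16011 kept), all libraries in 1 model and Benjamini-Hochberg adjustment over all genes and a threshold of 0.05. Adjusted p is from edgeR unless another tool is named. The SE is the absolute log2 fold change divided by the square root of F. Members and lists were chosen with earlier results of these data known; from each list the genes past the threshold, otherwise up to 2 of smallest p per day, were named, and Bcl2a1d, Cdkn1a, Cycs and the immediate early genes printed singly were chosen after their values were seen. Log2 CPM used a prior count of 2. Locations, exon lengths and GC content came from GENCODE M21, matched to 98.4% of symbols (23376 directly, 648 through synonyms). Promoter windows came from RefSeq (GRCm38.p6); 1 member's was left out. Other settings were DESeq2 1.42.0, limma 3.58.1 voom with sample weights, RLE factors, total counts, no filter, a model of the compared groups alone, replicate number as block, and each library left out; a GC offset (lowess span 0.5) with and without the block and covariates for receptor-gene background and immediate early genes were added after seeing the data. The steps were tested on simulated counts. Figures were drawn with matplotlib 3.10.9.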

Additional observations from a re-analysis of the deposited data

How the results depend on the processing

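The number of members past the threshold at day 7, 0, was 1 with DESeq2 (3.4% of all genes passed), limma voom (5.16%) and no filter on low counts (0.773%). It was 0 to 1 over the 11 libraries left out in turn, 1 without sham day 7 replicate 1 (2.66% of all genes) and without sham day 14 replicate 1 (0.486%) or 2 (0.531%). The member was Bcl2l1 each time. It is assumed to have been selected for its lower level after PNX, so these counts are no result about the family, and the same holds for the average of both days. In the mean of both days the number, 1 (Bcl2l1), was 0 with limma voom, with the replicate block, with the GC offset and replicate block together, with the covariate for receptor-gene background and with that for immediate early genes, and 0 to 1 over the libraries left out; the cause was not tested. After sham, between days, it was 0 to 1 over the libraries left out (Bak1 without sham day 7 replicate 1, where 3.41% of all genes passed, and Bcl2l1 without sham day 14 replicate 2, where 5.41% did, against 0.0187% with all libraries). In the other 3 comparisons it stayed at 0 in each setting. The log2 fold change of Bcl2l1 ranged over all settings from -2.55 to -0.14 at day 7, from -2.38 to -0.69 at day 14 and from -2.31 to -0.67 in the mean of both days. Its sign turned in the interaction with the immediate early covariate (-1.04), when the first sham library of day 14 (-0.07) or the first PNX library of day 14 (-0.13) was left out, within -0.13 to 1.61 over the libraries left out. Between days after sham it turned with that covariate (0.34). Pmaip1 between days after sham turned without sham day 14 replicate 2 (-0.18, within -0.18 to 1.90 over the libraries left out).

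Whether replicate numbers pair the libraries could not be settled. Of 15 pairs of the same number in different groups, 3 had a correlation of deviations over 0.1 (range -0.59 to 0.53). All 3 were sham and PNX libraries of the same day (0.53, 0.34 and 0.18), and the pairs across days were all negative. Of the 11 libraries 0 correlated best with one of their own number. Deviations from a group mean cancel out within the group, so this check cannot exclude pairing. With the replicate block Bcl2l1 was -1.96 ± 0.39 in the mean of both days. Depth limits Bbc3 most, at 4 to 67 counts a library. Over the whole table edgeR called 6 genes higher and 0 lower at day 7, DESeq2 122 and 312, and limma voom 249 and 577. At day 14 edgeR called 1 and 0, DESeq2 63 and 45, limma voom 0 and 0. Averaged over days, edgeR called 22 and 9, DESeq2 122 and 173, limma voom 5 and 2.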
